A study of Mus musculus with 6 samples.

Results

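The cholesterol and fatty acid synthesis genes are a list of 30 gene symbols that covers the enzymes from mevalonate to cholesterol, the enzymes of fatty acid synthesis, and proteins that control, carry or export sterol. Members were chosen by symbol, with earlier results of these data known. Of the 30, 29 had at least 1 probe set under their single symbol, 67 probe sets in all, out of 18193 genes measured this way; Acat2 was not analysed here. Expression was measured on 6 mouse arrays. The CD8aa Treg arrays (2D11, replicates 1, 2 and 4) hold Qa-1-restricted regulatory T cells with the CD8 alpha homodimer, and the OT-1 arrays (OvacD8, replicates 1, 2 and 3) hold T cells described as CD8aa+TCRab+; OT-1 is known as a transgenic T cell receptor for an ovalbumin peptide. Both groups were grown with their own antigen, antigen-presenting cells and IL-2. Culture with antigen-presenting cells and IL-2 is thus common to all 6 arrays. The antigen goes with the group, and its part cannot be told apart from that of the cells. The source is labelled a T cell clone in both groups and the growth protocol speaks of cell lines, so each group may be repeats of 1 clone. Strain, sex, age and the hours since the last stimulation are not given in the sources used here. Nothing says that replicates are separate cultures, so the p-values below reflect the spread among these 6 arrays alone, and that spread may be technical.

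Cholesterol is built from acetyl-CoA by way of mevalonate and squalene, and fatty acids are built from acetyl-CoA by way of malonyl-CoA. Both sets of enzymes are switched on by SREBP transcription factors (the products of Srebf2, mainly for sterols, and Srebf1, mainly for fatty acids), which the INSIG proteins hold in the endoplasmic reticulum while sterol is plentiful. When sterol is in excess, liver X receptors turn on exporters such as ABCA1. T cells that enter division after antigen are known to raise these pathways to make membrane, and in bulk RNA fewer cells of a type and less RNA per cell cannot be told apart.

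All values are log2 values from which the median of each probe set over the 6 arrays had been subtracted. A value says how far an array lies above or below the middle array for that gene, and levels cannot be compared between genes. Differences are the CD8aa Treg mean minus the OT-1 mean, with the standard error of the fit (n = 3 per group). The threshold for a call was an adjusted p of 0.05 (limma, Benjamini-Hochberg over all genes).

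OT-1 replicate 1 stood apart from the other OT-1 arrays, and each result that rests on it is given with and without it. Across probe sets spanning at least 0.1 it correlated with them at r = 0.298 and 0.353, whereas they correlated with each other at 0.855 (across probe sets, which are not independent replicates). The mean of the 24 poly-A spike-in probe sets, bacterial transcripts added to RNA to follow its labelling, was 0.49 on OT-1 replicate 1 and -1.58 and -2.39 on the other two OT-1 arrays. On the CD8aa Treg arrays it lay between -0.11 and 0.82. The 4 class II antigen presentation genes, all measured, which mark antigen-presenting cells, summed to 7.13 on OT-1 replicate 1 against -0.22 and 0.10 on the other OT-1 arrays and -0.93 to -0.13 on the CD8aa Treg arrays. H2-Ab1 differed from the other 3: it stood at 0.60 on OT-1 replicate 1 and at 1.35 and 1.63 on OT-1 replicates 2 and 3, and was called lower in CD8aa Tregs (-1.85), a call kept in 1 of the 6 fits that left out an array. The summed myeloid markers (9 of 10 measured) were 7.86, 2.12 and 1.22 on OT-1 replicates 1, 2 and 3 and -1.60 to 0.78 in CD8aa Tregs. The high sum on OT-1 replicate 1 rests on Lyz2, Mpeg1 and Csf1r (2.70, 3.27 and 1.17), whereas Cd68 stood at 0.48 there and at 3.34 and 3.44 on the other OT-1 arrays, and Cd14 at 0.20 there and at 0.66 and 0.75. The summed B cell markers (6 of 7 measured) stayed between -0.21 and 0.11 on all arrays. The proliferation genes (19 of 20 measured) summed to -7.46 on OT-1 replicate 1, to 7.70 and 7.32 on OT-1 replicates 2 and 3, and to -3.69 to 2.59 on the CD8aa Treg arrays. In 15 of the 19, OT-1 replicate 1 lay below both other OT-1 arrays, the exceptions being Mcm2, Mcm3, Mcm5 and Mcm6. Mcm2 stood at 0.050 on OT-1 replicate 1 and at -0.86 and -0.85 on the others, and Mcm5 at 0.091, -0.52 and -0.46. Pcna was alike on the OT-1 arrays (0.41, 0.47 and 0.44). Of the T cell markers, 10 of 11 were measured and 2 were called. Among those not called, Cd3e differed by 0.083, Cd3d by -0.73 (groups apart; adjusted p = 0.00577 without OT-1 replicate 1), Cd5 by 0.58 (groups apart) and Cd8a by -0.26, the mean of 5 probe sets from -2.40 to 0.85. Cd8b1, the beta chain that a CD8 alpha homodimer lacks, was lower in CD8aa Tregs by a difference of -2.36 (adjusted p = 0.00093), as was Cd247, a signalling chain of the T cell receptor, at -0.90 (adjusted p = 0.0151, kept in 2 of the 6 fits that left out an array). Both groups carry a CD8aa description, yet Cd8b1 stood at 1.07 to 1.16 on the OT-1 arrays and at -1.48 to -1.07 on the CD8aa Treg arrays. Whether that description holds for the OT-1 arrays was not tested. Which markers are absent cannot be read from centred values. The part of these other signals in the results below was not tested.

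**Figure D1:**
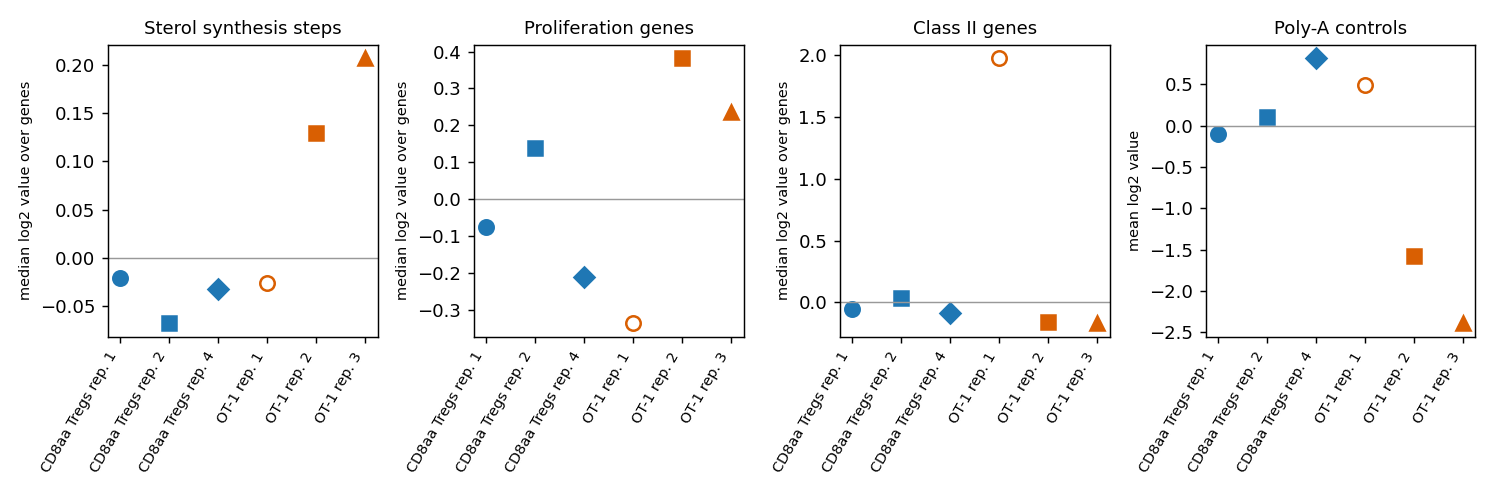
Each panel gives 1 value per array on the log2 scale, centred per probe set: the median over the 16 measured enzymes from mevalonate to cholesterol, over the proliferation genes and over the class II genes, and the mean of the poly-A controls. OT-1 replicate 1 has the class II value of 1.98 and lies with the CD8aa Tregs in the sterol and poly-A panels, and OT-1 replicates 2 and 3 have sterol medians of 0.13 and 0.21.

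Among the 29 measured members, Hsd17b7 was higher and Fdft1 lower in CD8aa Tregs, and 27 did not pass. Over all 18193 genes, 3.3% were called higher and 3.37% lower, and 1 of 29 in each direction is near that background. The differences of 19 members were negative and those of 10 positive, with a median of -0.14 beside a median of 0.0069 over all genes, of which 36.3% were negative. Of the 18193 genes, 5995 spanned under 0.1 over the arrays, and 0 of the members did. The shares over all genes given here thus include many genes that hardly vary. Groups did not overlap in 1 member that was higher and in 6 that were lower in CD8aa Tregs (Fdft1, Sc5d, Ebp, Scd2, Elovl6 and Abca1), where 12.6% and 10.7% of all genes were separated in those directions. In another 8 members (Hmgcs1, Mvk, Fdps, Sqle, Lss, Cyp51, Srebf2 and Stard4) OT-1 replicates 2 and 3 lay above every CD8aa Treg array while OT-1 replicate 1 did not, a pattern that 7.19% of all genes had. Without OT-1 replicate 1, 1 member was called higher and 10 lower (Hmgcs1, Fdft1, Sqle, Lss, Sc5d, Srebf2, Stard4, Elovl6, Scd2 and Abca1), where 7.8% and 9.4% of all genes were called. In that fit the groups coincide with the split of the poly-A controls, so these cannot be told apart. With the split as a term, where OT-1 replicate 1 is the lone OT-1 array on its side and is taken to vary like the others, 1 member was called higher and 0 lower, where 2.83% and 4.66% of all genes were called. In that fit Sqle stood at -0.012, Sc5d at -0.11, Elovl6 at -0.25 and Abca1 at -0.16, all short of the threshold. At an unadjusted p under 0.05 in the fit without that term, 1 was higher and 5 lower, where 10.8% and 9.09% of all genes were.

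**Figure D2:**
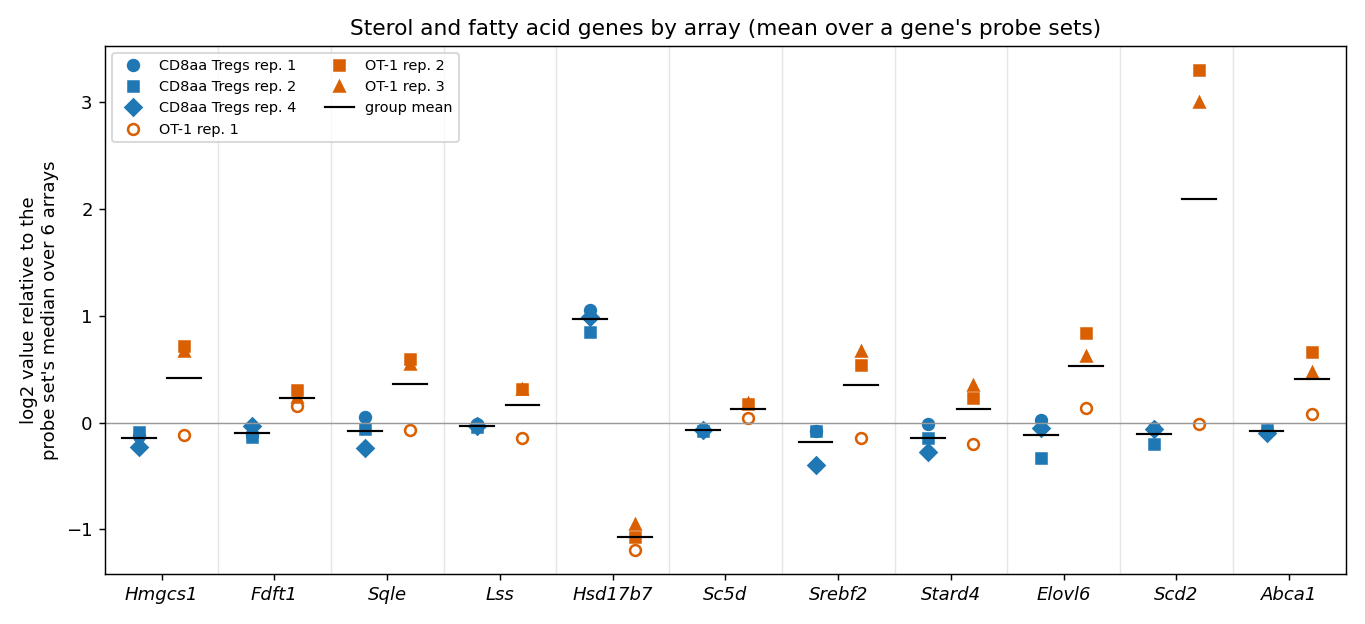
Log2 values, centred per probe set and averaged per gene, of the 11 members named by rule on each of the 6 arrays, ordered by role. Hsd17b7 separates all CD8aa Treg arrays (0.85 to 1.05) from all OT-1 arrays (-1.19 to -0.95), whereas Scd2 is high on OT-1 replicates 2 and 3 alone (3.30 and 3.00).

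Hsd17b7 had the clearest difference of the list. Its enzyme reduces the ketone that is left when methyl groups are taken off the sterol ring, and it is also known to convert estrone to estradiol. Its values were 1.05, 0.85 and 0.99 on CD8aa Treg replicates 1, 2 and 4 and -1.19, -1.07 and -0.95 on OT-1 replicates 1, 2 and 3. The groups lay far apart with little spread within either, and OT-1 replicate 1 sided with its own group. The difference was 2.04 ± 0.084, which is 4.10-fold higher in CD8aa Tregs (limma adjusted p = 0.000686). It was 1.98 without OT-1 replicate 1, between 1.98 and 2.10 when any array was left out, and 2.16 with the poly-A split as a term (adjusted p = 0.00268). Of its 4 probe sets, 3 passed on their own, at 2.45 ± 0.30, 1.93 ± 0.11 and 3.73 ± 0.13, and the fourth, 1440057_at, stood at 0.038 ± 0.031. The gene's difference was 1.47 without _x_at and _s_at probe sets, which may share probes with other genes, and 3.73 on its widest probe set, and passed in both. The call of 1417871_at, at 2.45, was lost without any 1 of the CD8aa Treg arrays or without OT-1 replicate 2 (limma adjusted p of at least 0.0809), and those of the other two passing probe sets were kept whichever array was left out.

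The promoters of Hsd17b7, Hmgcs1 and Sc5d are shown because they cover the member whose call held in all fits that left out an array, an early enzyme with the sterol regulatory element letters, and the member whose probe sets went opposite ways. Each run is the 250 bases before the annotated start in RefSeq (GRCm38.p6), 5′ to 3′ on the gene's strand. Capitals mark TCACNCCAC (the sterol regulatory element letters), CACGTG (an E-box) and CCAAT or its reverse complement ATTGG (the NF-Y box).
Hsd17b7 (chr1:169969206-169969455, minus strand): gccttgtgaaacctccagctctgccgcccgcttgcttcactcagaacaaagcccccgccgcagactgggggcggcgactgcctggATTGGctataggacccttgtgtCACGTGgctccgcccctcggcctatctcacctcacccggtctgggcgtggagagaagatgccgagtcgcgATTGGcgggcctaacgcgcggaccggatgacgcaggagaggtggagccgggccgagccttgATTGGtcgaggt
Hmgcs1 (chr13:119690101-119690350, plus strand): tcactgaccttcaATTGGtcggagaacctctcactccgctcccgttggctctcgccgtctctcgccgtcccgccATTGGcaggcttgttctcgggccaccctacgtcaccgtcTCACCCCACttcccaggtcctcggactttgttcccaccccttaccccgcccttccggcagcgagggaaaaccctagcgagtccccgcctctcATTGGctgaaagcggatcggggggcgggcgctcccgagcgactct
Sc5d (chr9:42264301-42264550, minus strand): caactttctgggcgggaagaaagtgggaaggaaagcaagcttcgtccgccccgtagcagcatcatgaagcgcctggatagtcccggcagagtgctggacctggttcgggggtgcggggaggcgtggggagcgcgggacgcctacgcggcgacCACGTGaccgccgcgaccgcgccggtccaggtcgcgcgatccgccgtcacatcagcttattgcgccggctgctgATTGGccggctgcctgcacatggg
Hmgcs1 holds the sterol regulatory element letters 137 bases before its start, Hsd17b7 holds an E-box 143 bases before its start and Sc5d 98 bases before its own, and each of the 3 has at least 1 NF-Y box. An entry was matched by symbol for 23 of the 30 members; those without one were Fdft1, Fdps, Sqle, Stard4, Scd1, Scd2 and Abcg1. Searched on both strands, TCACNCCAC occurred in 1 of the 23 members (4.35%) and in 1.22% of 27025 genes, CACGTG in 5 members (21.7%) and 6.86% of genes, and CCAAT in 18 members (78.3%) and 37.5% of genes. The GC box GGGCGG, not shown in capitals, occurred in 19 members (82.6%) and 35.4% of genes. The 27025 genes are all those with a promoter sequence. They were not limited to the genes measured or matched to the members in kind. Matches of different motifs did not overlap in the members. These are matches of letters in a window and were not tested as binding sites.

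The mevalonate enzymes turn acetyl-CoA units into the isoprenoid building blocks of sterols. Of 7 listed, 6 were measured and none was called. Their differences ran from -0.57 to 0.029, with 5 negative and 1 positive. Hmgcs1, which makes HMG-CoA, stood at -0.12, -0.087 and -0.23 on CD8aa Treg replicates 1, 2 and 4 and at -0.12, 0.71 and 0.67 on OT-1 replicates 1, 2 and 3. OT-1 replicates 2 and 3 were high and OT-1 replicate 1 lay inside the CD8aa Treg range, so the groups overlapped. The difference of -0.57 ± 0.25 did not pass (limma adjusted p = 0.303). Leaving out OT-1 replicate 1 gave -0.84 ± 0.052 (adjusted p = 0.00252), and with the poly-A split as a term it was -0.029. All 5 probe sets of Hmgcs1 had negative differences, from -0.79 to -0.086. The other members were Mvk, the mevalonate kinase, at -0.16 ± 0.077, Pmvk, the next kinase, at -0.060 ± 0.10, and Mvd, the decarboxylase that follows, at -0.17 ± 0.13. Fdps, which joins isoprenoid units into farnesyl diphosphate, stood at -0.27 ± 0.17, and Idi1, the isomerase, at 0.029 ± 0.13.

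The squalene and sterol ring enzymes commit farnesyl diphosphate to sterol and shape the ring. Of 10 measured, 1 was called higher (Hsd17b7) and 1 lower (Fdft1), and 7 differences were negative and 3 positive. Fdft1, the squalene synthase, stood at -0.12, -0.13 and -0.034 in CD8aa Tregs and at 0.16, 0.30 and 0.24 in OT-1. Every OT-1 array, replicate 1 included, lay above every CD8aa Treg array. The difference of -0.33 ± 0.049, 1.25-fold lower in CD8aa Tregs, passed (limma adjusted p = 0.0261). It passed without OT-1 replicate 1 (adjusted p = 0.0114) and in none of the 5 other fits that left out an array. Those gave adjusted p-values of 0.108, 0.099 and 0.0525 without CD8aa Treg replicates 1, 2 and 4 and of 0.0766 and 0.101 without OT-1 replicates 2 and 3. With the poly-A split as a term it was -0.25 (adjusted p = 0.0864). None of its 4 probe sets, at -0.48 to 0.00089, passed alone, and the call was lost when the median or the widest probe set stood for the gene (adjusted p = 0.166 and 0.402).

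Sqle, the squalene epoxidase, stood at 0.057, -0.057 and -0.24 in CD8aa Tregs and at -0.068, 0.60 and 0.55 in OT-1. OT-1 replicate 1 again lay among the CD8aa Treg arrays. The difference was -0.44 ± 0.21 (limma adjusted p = 0.352), and -0.65 ± 0.099 without OT-1 replicate 1 (adjusted p = 0.0209). Lss, the lanosterol synthase that closes the ring, stood at -0.015, -0.046 and -0.037 in CD8aa Tregs and at -0.15, 0.31 and 0.32 in OT-1, where replicate 1 was the lowest of all 6 arrays. Its difference was -0.19 ± 0.14 (adjusted p = 0.611), -0.35 ± 0.020 without OT-1 replicate 1 (adjusted p = 0.00213), and 0.12 with the poly-A split as a term (adjusted p = 0.0908). The direction of Lss thus differed between these fits.

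Sc5d, the desaturase that makes 7-dehydrocholesterol, was the member whose probe sets passed in opposite directions. As a gene it stood at -0.060, -0.080 and -0.068 in CD8aa Tregs and at 0.041, 0.17 and 0.18 in OT-1. The groups did not overlap, and the difference of -0.20 ± 0.043 did not pass (limma adjusted p = 0.0705), although it did without OT-1 replicate 1 at -0.25 ± 0.019 (adjusted p = 0.00399). Its probe set 1451457_at stood at -0.45, -0.86 and -0.74 in CD8aa Tregs and at 0.45, 0.85 and 0.82 in OT-1, and was lower in CD8aa Tregs by a difference of -1.39 ± 0.16 (limma p adjusted over all probe sets = 0.0192). Its probe set 1434520_at stood at 0.27, 0.57 and 0.54 in CD8aa Tregs and at -0.33, -0.27 and -0.28 in OT-1, and was higher by 0.75 ± 0.089 (limma p adjusted over all probe sets = 0.0196). Both probe sets separated all arrays of 1 group from all arrays of the other, in opposite directions. The remaining probe set, 1424709_at, stood at 0.036 ± 0.029. Both calls held without CD8aa Treg replicate 1 or OT-1 replicate 1 and were lost when CD8aa Treg replicate 2 or 4 or OT-1 replicate 2 or 3 was left out, with adjusted p-values of 0.0747 to 0.0876 for 1451457_at and 0.0701 to 0.0902 for 1434520_at. With the poly-A split as a term they were 0.0557 and 0.0699. Of the 9010 genes with more than 1 probe set, 7 (0.0777%) had probe sets called in both directions. The mean over the 3 therefore does not describe any of them, and the transcripts each one reads were not tested.

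The remaining ring enzymes did not pass. Ebp, the sterol isomerase, had groups that did not overlap and a difference of -0.23 ± 0.072 (limma adjusted p = 0.171). Cyp51 and Msmo1, which act on the methyl groups of the ring, stood at -0.14 ± 0.069 and -0.12 ± 0.065. Nsdhl, which acts with them, and Dhcr7, which makes cholesterol from 7-dehydrocholesterol, stood at 0.13 ± 0.076 and 0.23 ± 0.18. Over the 16 measured enzymes from mevalonate to cholesterol, the array medians were -0.021, -0.068 and -0.032 in CD8aa Tregs and -0.026, 0.13 and 0.21 in OT-1. The arrays with the higher sterol medians, OT-1 replicates 2 and 3, were also those with the higher sums of proliferation genes and the lower poly-A controls. Among the remaining arrays, CD8aa Treg replicate 2 had the highest proliferation sum (2.59) and the lowest sterol median (-0.068). OT-1 replicate 1 had the lowest proliferation sum (-7.46) and a sterol median of -0.026. A link between these signals was not tested.

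**Figure D3:**
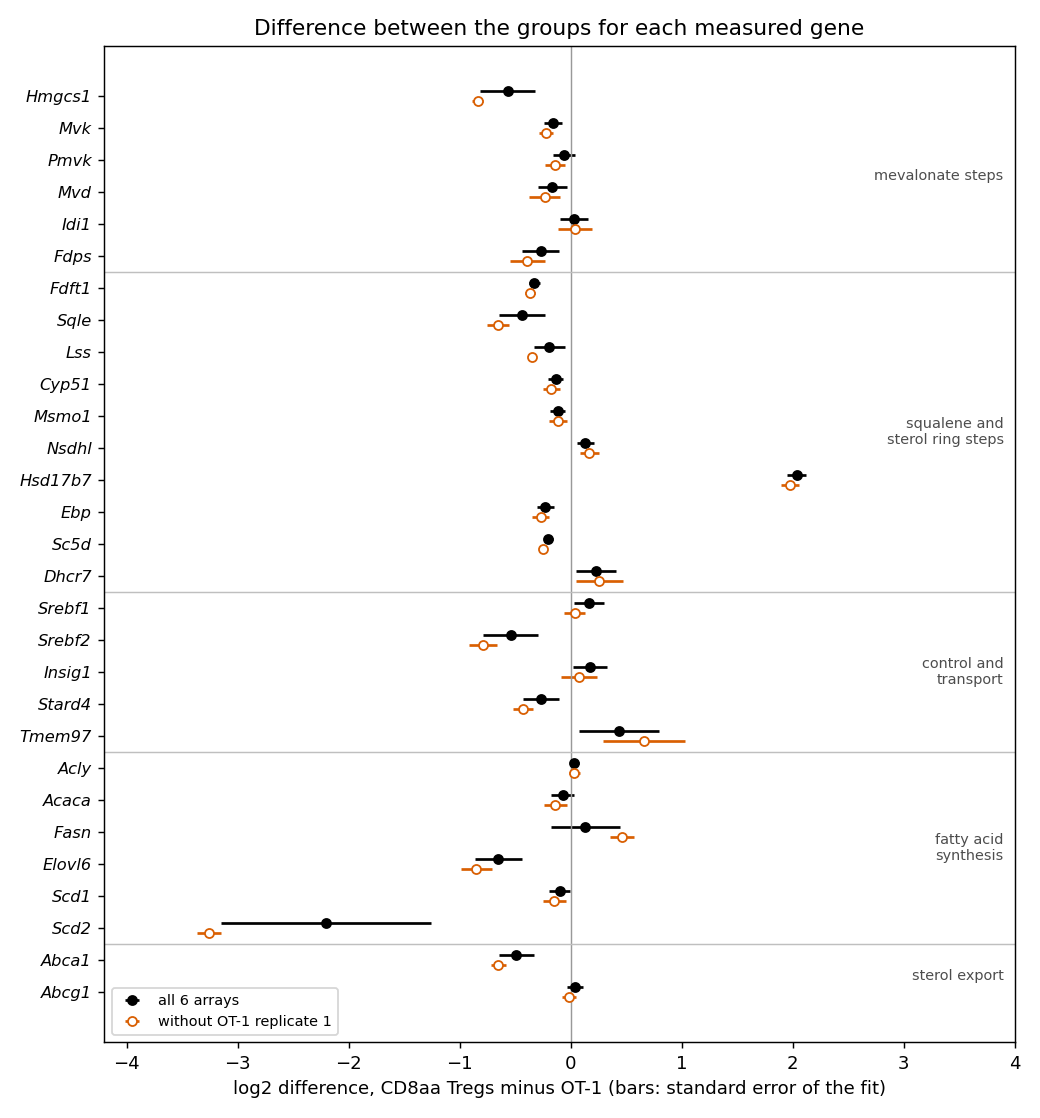
Difference (CD8aa Tregs minus OT-1, log2) of each measured member with its standard error, with all 6 arrays and without OT-1 replicate 1. Hsd17b7 stays near 2 in both fits, and Scd2 moves from -2.20 to -3.26 while its standard error shrinks from 0.95 to 0.11.

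The genes that control the pathway or carry sterol inside the cell gave no call among 5 measured, with 2 negative and 3 positive differences. Srebf2, which encodes the SREBP that drives the sterol enzymes, stood at -0.075, -0.081 and -0.40 in CD8aa Tregs and at -0.14, 0.54 and 0.67 in OT-1. Its values followed those of Hmgcs1 in that OT-1 replicates 2 and 3 were high and OT-1 replicate 1 was not. The difference was -0.54 ± 0.25 (limma adjusted p = 0.332), -0.79 ± 0.13 without OT-1 replicate 1 (adjusted p = 0.0238) and -0.040 with the poly-A split as a term. Srebf1 stood at 0.10, 0.14 and -0.13 in CD8aa Tregs and at -0.37, -0.018 and 0.018 in OT-1, a difference of 0.16 ± 0.13 with overlapping groups. Without OT-1 replicate 1, its lowest array, the difference was 0.038 ± 0.095. Stard4, which shuttles cholesterol between membranes, stood at -0.017, -0.14 and -0.27 in CD8aa Tregs and at -0.20, 0.23 and 0.35 in OT-1. Its groups overlapped through OT-1 replicate 1, and its difference was -0.27 ± 0.16 (adjusted p = 0.499). Without that array it was -0.43 ± 0.091 (adjusted p = 0.0479), and with the poly-A split as a term it was 0.056. Insig1, which retains the SREBPs, stood at 0.17 ± 0.16, and at 0.075 ± 0.16 without OT-1 replicate 1. Tmem97, a sterol-responsive membrane protein, stood at 0.43 ± 0.36, with 0.86 on CD8aa Treg replicate 4 and -0.67 on OT-1 replicate 3 as its extremes.

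The fatty acid enzymes gave no call among 6 measured, with 4 negative and 2 positive differences, yet held the widest member. Scd2, a stearoyl-CoA desaturase that makes monounsaturated fatty acids, stood at -0.056, -0.20 and -0.057 in CD8aa Tregs and at -0.011, 3.30 and 3.00 in OT-1. OT-1 replicates 2 and 3 stood about 3 log2 units above every other array, and OT-1 replicate 1 lay within 0.2 of the CD8aa Tregs. The difference of -2.20 ± 0.95, 4.60-fold, did not pass (limma adjusted p = 0.302), and leaving out OT-1 replicate 1 gave -3.26 ± 0.11 (adjusted p = 0.000666). With the poly-A split as a term it was -0.095. Its 3 probe sets, at -2.74, -2.63 and -1.24, had the same direction. Elovl6, which lengthens palmitate, stood at 0.023, -0.33 and -0.052 in CD8aa Tregs and at 0.13, 0.84 and 0.62 in OT-1. Its groups did not overlap, OT-1 replicate 1 being only a little above the CD8aa Treg arrays. The difference was -0.65 ± 0.21 (adjusted p = 0.176), and -0.85 ± 0.14 without that array (adjusted p = 0.0252). The probe sets of Elovl6 ran from -1.74 to 0.32.

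Fasn, the fatty acid synthase, stood at 0.18, 0.13 and -0.13 in CD8aa Tregs and at 0.59, -0.36 and -0.44 in OT-1. Here OT-1 replicate 1 was the highest array and OT-1 replicates 2 and 3 the lowest, the reverse of Scd2. The difference was 0.13 ± 0.31 (limma adjusted p = 0.921), and 0.46 without OT-1 replicate 1 (adjusted p = 0.0669). Acly, which makes cytosolic acetyl-CoA from citrate, Acaca, the acetyl-CoA carboxylase, and Scd1 stood at 0.034 ± 0.039, -0.071 ± 0.10 and -0.098 ± 0.095. The members of the fatty acid branch therefore did not share a direction.

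The sterol exporters gave no call. Abca1 stood at -0.081, -0.070 and -0.097 in CD8aa Tregs and at 0.082, 0.66 and 0.47 in OT-1. Its groups did not overlap, and the difference was -0.49 ± 0.15 (limma adjusted p = 0.167). Leaving out OT-1 replicate 1 gave -0.65 ± 0.065 (adjusted p = 0.00747). Of its 3 probe sets, at -1.46 to 0.0064, 1421840_at carried the difference, with -0.24, -0.25 and -0.26 in CD8aa Tregs and 0.24, 2.05 and 1.34 in OT-1. Abcg1, the other exporter, stood at 0.037 ± 0.070.

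Of the 67 member probe sets, 4 were called higher and 1 lower in CD8aa Tregs, where 2.0% and 2.05% of all 45037 probe sets were called in those directions. The higher ones were 3 of Hsd17b7 and 1 of Sc5d, and the lower one was of Sc5d. Of the 20 members with more than 1 probe set, 8 had probe set differences of a single sign. A total of 9 member probe sets had a range under 0.1 and carry little information on the groups.

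**Figure D4:**
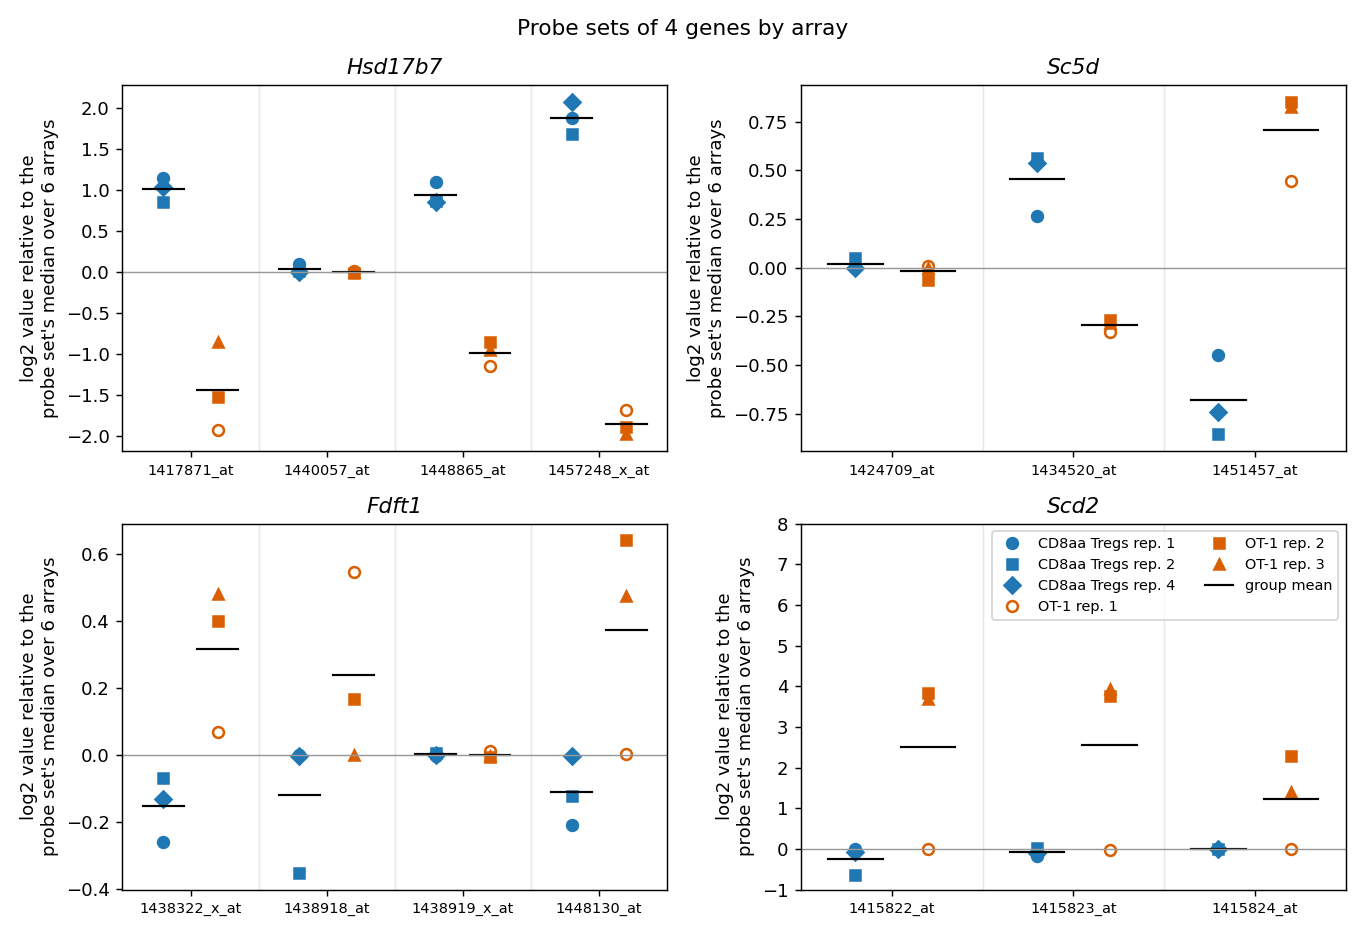
Log2 values, centred per probe set, of the probe sets of Hsd17b7, Sc5d, Fdft1 and Scd2 on each array, with group means as lines. The differences (CD8aa Tregs minus OT-1) of the Hsd17b7 probe sets reach 3.73, and those of the Sc5d probe sets that passed lie on both sides of 0, at -1.39 and 0.75.

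A second list held 47 other genes of the same pathways, of which 39 were measured; it comprises further sterol steps, sterol sensing and uptake, further fatty acid steps, and liver X receptor and sterol disposal genes. In it 0 genes were called higher and 5 lower in CD8aa Tregs, beside the 3.3% and 3.37% of all genes. At an unadjusted limma p under 0.05, 3 were higher and 11 lower, beside the 10.8% and 9.09% of all genes. The 5 were 3 of 8 in sensing and uptake (Lpin1, Npc1 and Lipa), 1 of 16 in the fatty acid steps (Acss2) and 1 of 9 in the liver X receptor group (Mylip), with none of 6 in the further sterol steps. The median difference was -0.12, with 22 negative and 17 positive. Without OT-1 replicate 1, 1 was called higher and 12 lower, beside 7.8% and 9.4% of all genes, and with the poly-A split as a term 1 was called higher and 6 lower, beside 2.83% and 4.66%.

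Acss2, which makes acetyl-CoA from acetate, stood at -1.30, -1.30 and -1.35 in CD8aa Tregs and at 1.32, 1.55 and 1.55 in OT-1. OT-1 replicate 1 sided with the other OT-1 arrays here, unlike in Scd2. Acss2 was 6.93-fold lower in CD8aa Tregs, a difference of -2.79 ± 0.072 (limma adjusted p = 0.000206), although its 3 probe sets ran from -4.12 to -0.46. Mylip, a ubiquitin ligase that liver X receptors induce and that removes lipoprotein receptors, stood at -2.21, -2.51 and -2.64 in CD8aa Tregs and at 3.04, 2.21 and 2.35 in OT-1. All OT-1 arrays were far above all CD8aa Treg arrays. It was 31.6-fold lower in CD8aa Tregs on its 1 probe set, a difference of -4.98 ± 0.26 (adjusted p = 0.00119). Both passed whichever array was left out.

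Npc1, which releases cholesterol from lysosomes, stood at -1.48, -1.26 and -0.72 in CD8aa Tregs and at 0.83, 0.82 and 0.72 in OT-1. The groups did not overlap, and it was 3.85-fold lower in CD8aa Tregs (-1.94 ± 0.21; limma adjusted p = 0.0105), a call lost without CD8aa Treg replicate 2 (adjusted p = 0.051) or OT-1 replicate 2 (adjusted p = 0.0588). Lipa, the lysosomal acid lipase that frees cholesterol from its esters, stood at -0.30, -0.42 and -0.22 in CD8aa Tregs and at 0.36, 0.20 and 0.34 in OT-1. It was lower by -0.61 ± 0.072 (adjusted p = 0.0135), a call lost without CD8aa Treg replicate 1 (adjusted p = 0.0637) or OT-1 replicate 3 (adjusted p = 0.0619), on its widest probe set (adjusted p = 0.0721) or without _x_at and _s_at probe sets (adjusted p = 0.0652). Lpin1, a phosphatidic acid phosphatase, stood at -0.49, -0.28 and -0.56 in CD8aa Tregs and at 0.42, 0.46 and 0.33 in OT-1. It was lower by -0.85 ± 0.083 (adjusted p = 0.00848) and passed whichever array was left out. In these 5 genes OT-1 replicate 1 lay with the other OT-1 arrays, and no value on it fell into the CD8aa Treg range.

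Me1, which makes NADPH for fatty acid synthesis and was chosen after its values were seen, stood at -0.034, -0.00074 and -0.041 in CD8aa Tregs and at 0.00074, 3.21 and 3.56 in OT-1. As in Scd2, OT-1 replicates 2 and 3 were alone in being high. Its difference of -2.28 ± 1.01 did not pass (limma adjusted p = 0.318), and it was -3.41 without OT-1 replicate 1 (adjusted p = 0.000595).

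The sterol sensors gave smaller values. Scap, which escorts the SREBPs, stood at 0.11 ± 0.032 (limma adjusted p = 0.155), with groups that did not overlap. Insig2 stood at -0.026, -0.067 and 0.0014 in CD8aa Tregs and at -0.16, 0.39 and 0.40 in OT-1. Its difference was -0.24 ± 0.17 (adjusted p = 0.588), and -0.42 without OT-1 replicate 1 (adjusted p = 0.00286). OT-1 replicates 2 and 3 were thus high and OT-1 replicate 1 low, as in Srebf2. Nr1h3, a liver X receptor, spanned less than 0.1 over all arrays and had a difference of 0.0090. Of the 6 genes of the second list that were to be named in any case, 3 were not analysed here.

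**Figure D5:**
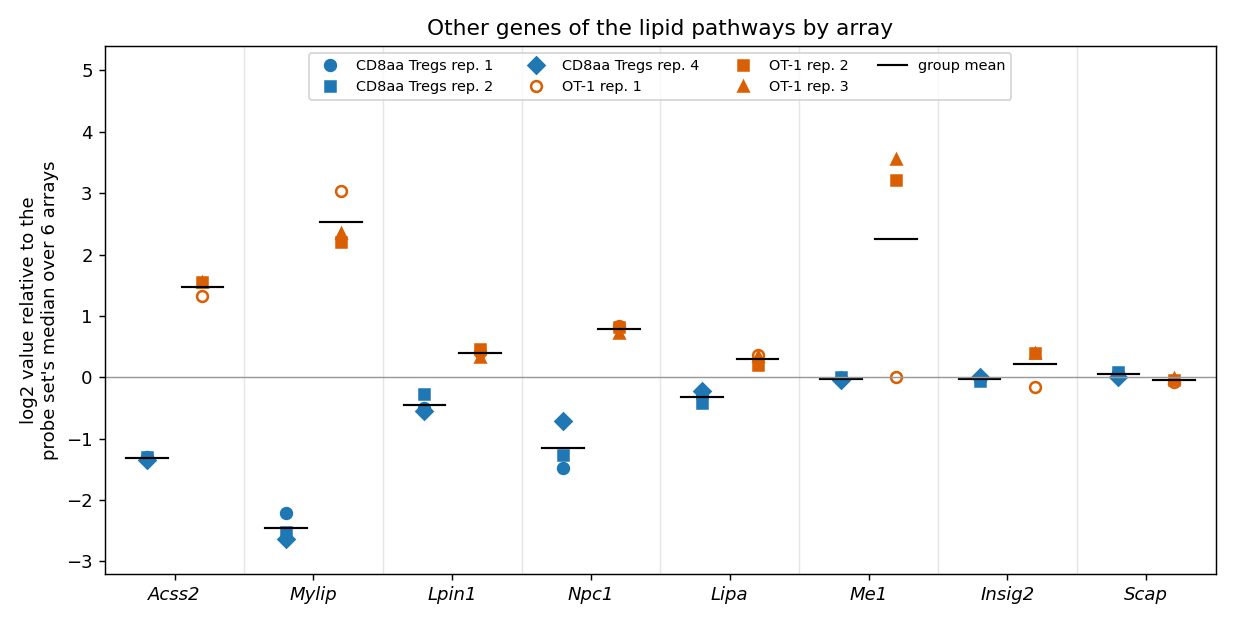
Log2 values, centred per probe set and averaged per gene, of genes of the second list on each array, with group means as lines. Mylip, Acss2, Npc1, Lpin1 and Lipa separate the groups on all 6 arrays, from Mylip at -2.64 to -2.21 against 2.21 to 3.04 down to Lipa at -0.42 to -0.22 against 0.20 to 0.36. Scap, at 0.0075 to 0.091 against -0.081 to -0.014, and Me1 also separate them. For Me1 the nearest arrays are OT-1 replicate 1 (0.00074) and CD8aa Treg replicate 2 (-0.00074).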

How the data were processed

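RNA from 3 CD8aa Treg and 3 OT-1 samples was extracted with the RNeasy Mini kit, amplified with the Ovation system and biotin-labelled, per the labels' protocols, and the array values were made with RMA, per the submitters' processing notes. The deposited values were used as log2 values; the base is not given in the sources used here, but their widest range, 11.37, exceeds what natural logs of a 16-bit scanner range allow (11.09). The deposited log2 values had the median of each probe set over the 6 arrays at 0 (within 5.0e-07), so levels were removed, and signal over background could not be read. Of 45101 probe sets, 64 were array controls. A platform annotation table gave 1 symbol to 34945 of the 45037 others, several to 932, and did not list 9160; Entrez identifiers of 34741 matched a RefSeq table (GRCm38.p6), which changed 0 symbols. The mean of a gene's probe sets was its value, for 18193 genes.

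Groups were compared with limma 3.58.1 in R 4.3.3 (lmFit, eBayes, two-sided; Benjamini-Hochberg over all genes, or over all probe sets for single probe sets), after a check on simulated data. With 3 arrays per group the number of arrays limits the precision, as does the spread among the OT-1 arrays where OT-1 replicate 1 stood apart. The members and lists were chosen with earlier results of these data known. Genes were named by rule if they were members that passed or whose call changed when an array was left out, genes of the second list that passed, or among 6 genes named in any case, of which 3 were not analysed here. The array values of Fasn, Srebf1 and Me1 are given outside that rule and were chosen after their values were seen. As alternatives, arrays were left out in turn, and the fit was repeated with the replicate number as a block, with other scalings, filters, thresholds and ways to combine probe sets, with array weights, with robust variances and with a term for the poly-A split. Leaving out probe sets that spanned under 0.1 was added after the data were seen.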

Additional observations from a re-analysis of the deposited data

How the results depend on the processing

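Hsd17b7 passed under every alternative run, and the counts below follow the settings. At an adjusted p under 0.01, 380 genes, 612 probe sets, 0 members lower, 2 member probe sets higher and 0 lower, and 3 genes of the second list lower were called; under 0.1 these were 1898, 3100, 2, and 2 member probe sets lower, with 1 gene of the second list higher. At an unadjusted p under 0.05 they were 3614 genes, 7224 probe sets, 5 members lower, 9 member probe sets lower, and 3 higher and 11 lower of the second list. Array weights gave 7391 genes, 17219 probe sets, 4 members higher and 14 lower, 10 member probe sets higher and 25 lower, and 4 higher and 17 lower of the second list; the weights of CD8aa Treg replicate 1 (6.32) and OT-1 replicate 3 (8.45) exceeded the others (0.22 to 0.64), and limma did not reach its tolerance for them. With the range filter, 2962 probe sets were called, 2 of the members' lower, and 1 gene of the second list higher. Quantile normalization called 2 members and 2 member probe sets lower, and the median of probe sets 0 members lower. With the poly-A split as a term, 0 members and 0 member probe sets were called lower and 1 gene of the second list higher.

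The replicate number as a block gave 202 genes, 229 probe sets, 0 members lower, 1 member probe set higher and 0 lower, and 3 genes of the second list lower. The groups share only 2 numbers. Arrays with the same number deviated together at r = 0.0011 and 0.17, beside -0.17 to 0.18 for other pairs. With 2 such pairs, and deviations taken from group means of 3 arrays, these values cannot decide whether the numbers pair arrays.

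Leaving out each array gave 523 to 3129 genes, 811 to 4773 probe sets, 1 member higher and 0 to 10 lower, 2 to 4 member probe sets higher and 0 to 17 lower, and 0 to 1 higher and 4 to 12 lower of the second list. The highest count in each range of lower calls came without OT-1 replicate 1; all genes numbered 523, 599 and 697 without CD8aa Treg replicates 1, 2 and 4, and 535 and 564 without OT-1 replicates 2 and 3.

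Of 321 differences of the 19 named genes under these settings, 273 kept direction and side of the threshold, 23 passed anew, 17 no longer passed and 8 reversed. The 8 were Lss (0.12), Stard4 (0.056) and Insig2 (0.13) with the poly-A split as a term, Sc5d (0.036) with the median of probe sets, and Nr1h3 with array weights (-0.0086), quantile normalization (-0.0065), the poly-A split (-0.0047) and without OT-1 replicate 2 (-0.0041, the lowest of its fits up to 0.016). The cause was not tested.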

Other observations

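The genes beside 2 of the members in the order of assembly GRCm38.p6 gave values that belong in no comparison above. They were looked up by their place, and only some of those measured are named, among them both that passed. Near Hsd17b7, Uap1, which makes UDP-N-acetylglucosamine, had a log2 difference (CD8aa Tregs minus OT-1) of 0.36 ± 0.036 (limma adjusted p = 0.00878). The neighbours Ddr2, which is nearer, and Rgs4, which is as many genes away on the other side, stood at -0.024 ± 0.036 and 0.019 ± 0.018. Near Scd2, its relatives Scd1 and Scd3 stood at -0.098 ± 0.095 and -0.017 ± 0.025. Ndufb8, a subunit of respiratory complex I and 5 genes away, stood at -0.49 ± 0.053 and passed too (adjusted p = 0.011). The other measured neighbours did not pass, among them Nuf2 near Hsd17b7 at -0.46 ± 0.20 and Cwf19l1 near Scd2 at -0.29 ± 0.12. Over all genes, 3.3% were called higher and 3.37% lower.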
